A study of Mus musculus with 2931 samples.

Results

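The genes described here are 10 members of the hypoxia response: the oxygen sensors Egln3 and Egln1, the hypoxia-inducible factor (HIF) subunits Hif1a, Epas1 and Hif3a, and the targets Ankrd37, Bnip3, Ndrg1, P4ha1 and Kdm3a. They were chosen by symbol, 10 of the 18072 genes counted, after Egln3 and Ankrd37 had stood out between the embryonic day E18.5 and the first postnatal day (P1) in the capillary lineage. That contrast is therefore given here as values with no test. The series measured RNA in 2931 single cells of mouse distal lung labelled as endothelial cells (EC), 2694 from a sort gate for CD31, a surface protein of endothelium, and 237 from gates for mesenchyme or CD45. The cells came from 10 named mice, 1 female and 1 male for each of 5 groups: E18.5, P1, P7 and P21, all without treatment, and P7 after hyperoxia. The labels give neither the strain, nor the oxygen level, nor whether a name stands for 1 animal or a pool, and all groups shared the tissue. The share of each gate differed: 65 cells of the P21 female and 120 of the P21 male came from the mesenchyme gate, against 0 to 2 cells of each mouse at E18.5 and P1. Each cell carries 1 of 10 subtype labels given by the submitters. Such labels are made from the cells' own expression, so a level by label is a description.

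HIFs are transcription factors built from an oxygen-regulated alpha subunit and a stable beta subunit. In oxygen, prolyl hydroxylases of the Egln (PHD) family mark the alpha subunit for degradation through the von Hippel-Lindau protein, and at low oxygen the subunit persists and switches on target genes that hold the core sequence ACGTG or GCGTG. Egln1 (PHD2) and Egln3 (PHD3) are sensors and also known HIF targets, so they sit on both sides of the pathway. Epas1 encodes HIF-2 alpha, which is abundant in lung endothelium, and Hif3a encodes a subunit whose short forms can restrain the others. At birth the lung fills with air, and the oxygen that reaches its vessels rises.

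Reads were summed per mouse and class of cells, and a level is given in reads per 1000000 gene reads of that sum (CPM), the female mouse first and the male second. A cell held 42095 to 2967985 reads, with a median per mouse from 188609.5 (P7 male) to 928377 (P7 female), and 11 cells had fewer than 50000. The female CD31 cells of E18.5, P1 and P21 shared a sequencing run, as did the male CD31 cells of E18.5, P7, P21 and hyperoxia, and the other mice lay apart, so no P1 and P7 mice share a run for their CD31 cells. All 5 endothelial markers (Pecam1, Cdh5, Cldn5, Tek, Egfl7) were read in every capillary sum at E18.5 and P1, at 8181 to 8912 CPM in total at E18.5 and 11207 to 11424 at P1. Between the same sums, 9 early response and heat shock genes such as Fos and Hspa1a totalled 5237 to 5737 CPM at E18.5 and 2572 to 3716 at P1, and their part in the results was not tested. The 4 epithelial markers totalled 60.03 to 188 CPM at E18.5 and 31.8 to 51.7 at P1, nearly all of it Sftpc, with 3 or 4 of the 4 read in each sum. The 4 mesenchymal markers (all 4 read) totalled 11.3 to 24.1 and 5.69 to 9.67, the 4 immune markers (2 to 4 read) 7.13 to 7.77 and 11.3 to 18.1, and 5 erythroid markers (4 or 5 read) 9.79 to 14.5 and 7.58 to 12.5. Their part was not tested either.

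The promoters of Egln3, Ankrd37 and Hif3a are printed because these 3 genes stood furthest below their E18.5 level at P1 and carry different versions of the HIF core. Each runs 5′ to 3′ along the gene, from 250 bases before to 50 bases after the RefSeq start on GRCm38.p6. Capitals mark ACGTG or GCGTG on either strand (CACGT or CACGC where the core lies on the other strand), and neighbouring cores may overlap. Egln3 lies at chr12:54203825-54204124 on the minus strand, Ankrd37 at chr8:45999801-46000100 on the minus strand, and Hif3a at chr7:17062378-17062677 on the minus strand.
Egln3 promoter: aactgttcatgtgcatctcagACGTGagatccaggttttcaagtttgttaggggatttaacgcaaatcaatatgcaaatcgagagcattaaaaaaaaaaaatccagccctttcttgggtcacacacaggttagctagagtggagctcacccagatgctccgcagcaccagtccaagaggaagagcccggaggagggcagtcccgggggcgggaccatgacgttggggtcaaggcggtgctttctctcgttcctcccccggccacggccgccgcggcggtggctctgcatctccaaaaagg
Ankrd37 promoter: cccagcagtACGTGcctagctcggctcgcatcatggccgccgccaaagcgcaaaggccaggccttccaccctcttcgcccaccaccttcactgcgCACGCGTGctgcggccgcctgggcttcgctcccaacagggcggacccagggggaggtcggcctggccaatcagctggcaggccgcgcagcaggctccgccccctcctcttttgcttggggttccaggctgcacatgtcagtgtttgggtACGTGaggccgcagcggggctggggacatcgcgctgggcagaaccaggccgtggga
Hif3a promoter: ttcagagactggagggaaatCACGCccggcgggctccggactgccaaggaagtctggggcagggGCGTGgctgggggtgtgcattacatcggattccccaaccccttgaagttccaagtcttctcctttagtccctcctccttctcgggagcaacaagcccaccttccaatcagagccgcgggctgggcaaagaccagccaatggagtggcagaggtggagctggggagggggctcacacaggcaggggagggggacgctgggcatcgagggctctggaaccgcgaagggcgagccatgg

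Egln3 held 1 core, Ankrd37 held 4, and Hif3a held 2, of which 0 were ACGTG. RefSeq windows were at hand for 8 of the 10 members, and Epas1 and Ndrg1 were not among them. The 8 members have 10 windows, 3 of them of Kdm3a. ACGTG occurred in 6 of the 10, against 19.6% of the 32851 promoters of the same length. Either core occurred in 8 of the 10, against 43.8% of all. A match is a description of these letters, not a site shown to be bound.

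The capillary lineage at birth is the step from cells labelled Nonproliferative embryonic EC at E18.5 (134 and 168 cells) to Car4- capillaries at P1 (Early and Late labels summed, 181 and 122 cells). Car4- capillaries are the general capillary cells of the air sacs. Of the 10 members, 5 had both P1 mice below both E18.5 mice, 1 had them above and 4 overlapped. Over all 14967 genes tested, 18.6% were lower and 16% higher in the same way. The members' median log2 difference, P1 minus E18.5, was -1.30, or -1.40 with genes near 0 reads held at a floor of 3 reads, and that of all genes was 0.02. Without the P1 female 9 members were lower, and without the E18.5 male 8. Fewer mice then have to lie apart, and the share of all genes was not counted for these sets. Because this contrast chose members, nothing is read from these counts. Sums over cells cannot tell apart fewer expressing cells and less RNA per cell. The shares of cells with a read, given further on, cannot either, since less RNA per cell also lowers them.

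Egln3, the sensor PHD3, stood at 132 and 72.5 CPM in the E18.5 mice and at 0.0486 and 0 CPM in the P1 mice. These are 22531 reads at E18.5 and 4 reads at P1. The log2 difference was -12.01 (SE 1.40, 2 mice a group). Both E18.5 mice lay far above both P1 mice, and in the male P1 mouse no cell of the class held a read. In the female pair, whose cells share a run, the levels were 132 and 0.0497 CPM. The other sensor, Egln1 (PHD2), stood at 61.7 and 30.8 CPM at E18.5 and 18.3 and 14.7 at P1, a log2 difference of -1.40 (SE 0.73). The groups did not overlap, and the E18.5 mice lay further from each other than the P1 mice did.

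Hif3a stood at 64.8 and 60.1 CPM at E18.5 and at 0.0122 and 3.66 CPM at P1. The log2 difference was -4.85 (SE 1.59), and it was -12.25 without the P1 male, which held nearly all of the 364 P1 reads. The E18.5 mice were close together, and both P1 mice lay below them, far apart from each other. Epas1, the HIF-2 alpha subunit, lay the other way, at 256 and 169 CPM at E18.5 and 1815 and 1273 CPM at P1. Its log2 difference was +2.94 (SE 0.41), and both P1 mice lay above both E18.5 mice. Hif1a, the most widely expressed alpha subunit, stood at 65.0 and 27.4 CPM at E18.5 and 51.2 and 16.3 at P1, so that its groups overlapped.

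Levels of different genes compare only per length of exon. In CPM per kilobase, averaged over 2 mice, the embryonic cells held Egln3 at 38.3 (SD 15.7), Epas1 at 38.0 (SD 11.01), Egln2 at 17.4 (SD 5.23), Egln1 at 12.9 (SD 6.09), Hif3a at 9.30 (SD 0.49) and Hif1a at 7.84 (SD 4.51). Egln3 was thus the highest of the 3 sensors before birth, level with Epas1. In P1 Car4- capillaries the same order per kilobase was Epas1 at 276 (SD 68.6), Egln2 at 32.6 (SD 14.9), Hif1a at 5.73 (SD 4.19), Egln1 at 4.59 (SD 0.69), Hif3a at 0.274 (SD 0.384) and Egln3 at 0.00913 (SD 0.0129). Egln3 had the lowest mean of these 6 genes at P1, although in the P1 female Hif3a (0.00181) lay below it (0.0183), and Hif1a and Egln1 did not differ beyond their spread from each other at P1.

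Among the targets, Ankrd37, which encodes a small ankyrin repeat protein, stood at 652 and 397 CPM at E18.5 and at 15.6 and 71.0 CPM at P1. The log2 difference was -3.40 (SE 0.69), or -5.11 without the P1 male, and both P1 mice lay below both E18.5 mice. Ndrg1, a stress-responsive protein induced by hypoxia, stood at 71.9 and 38.6 CPM and then at 21.4 and 16.5, a log2 difference of -1.46 (SE 0.71). The groups of Ndrg1 did not overlap either. For the other 3 targets the mice of the E18.5 and P1 groups overlapped. Bnip3, which acts in mitophagy, differed by -1.20 (SE 0.92), P4ha1, which hydroxylates collagen, by -1.08 (SE 0.66), and Kdm3a, a histone demethylase, by -0.22 (SE 0.61). The 10 genes therefore did not lie together: Egln3 stood far below its E18.5 level and Kdm3a near it, though both are known HIF targets.

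**Figure D1:**
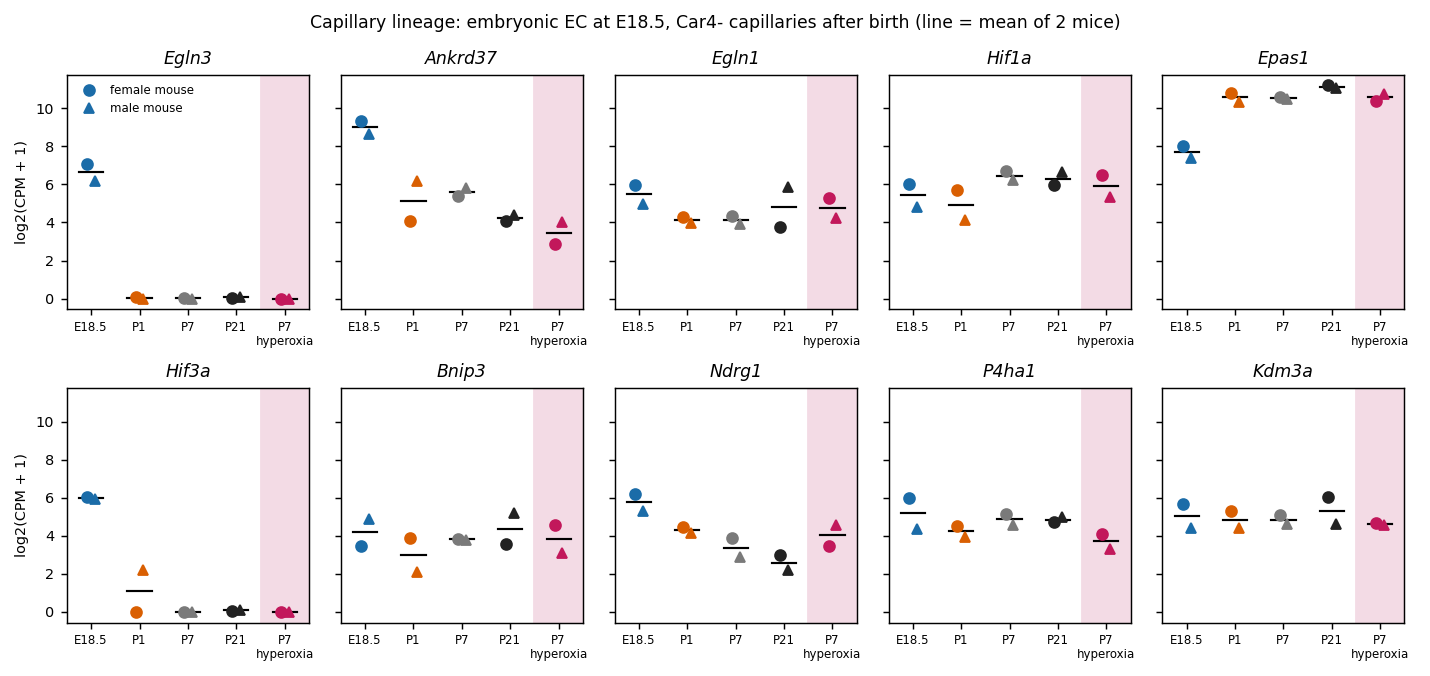
Level of each of the 10 genes in the capillary lineage by group, as log2(CPM + 1). Each point is 1 mouse (circle female, triangle male; embryonic EC at E18.5, Car4- capillaries from P1 on, P7 hyperoxia shaded), and the short line is the mean of the log values of 2 mice. Egln3 starts at 132 and 72.5 CPM and lies at the foot of its panel from P1 on, Hif3a and Ankrd37 lie lower at P1, Epas1 lies higher at 1815 and 1273 CPM, and the groups of Kdm3a overlap.

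Shares of cells with a read were taken at 1 depth. Each cell was thinned to 50000 reads, and shallower cells were left out. Egln3 had a read in 50 of 132 embryonic cells of the female (37.9%, exact Clopper-Pearson 95% interval 29.6 to 46.7%) and 31 of 168 of the male (18.45%, 12.9 to 25.2%). At P1 it had one in 1 of 180 Car4- cells of the female (0.556%) and in 0 of 122 of the male, which allows a share of up to 2.46%. So the gene was read in a part of the embryonic cells and hardly at all in their P1 counterparts. Without thinning, the embryonic share of the female was 50%. These intervals and limits cover counting error only.

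Hif3a had a read in 55 of 132 (41.7%) and 43 of 168 (25.6%) embryonic cells, then in 0 of 180 (up to 1.67%) and 7 of 122 (5.74%) P1 Car4- cells. Ankrd37 had one in 104 of 132 (78.8%) and 98 of 168 (58.3%) embryonic cells, then in 18 of 180 (10%) and 14 of 122 (11.5%). Epas1 had one in 92 of 132 (69.7%) and 79 of 168 (47.0%), then in 173 of 180 (96.1%) and 120 of 122 (98.4%). Ankrd37 was thus read in most embryonic cells and few P1 cells, and Epas1 in nearly every P1 cell. The difference in level of these genes went with a difference in how many cells held a read at 1 depth. Such a share falls with the RNA per cell too, so it does not count expressing cells.

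**Figure D2:**
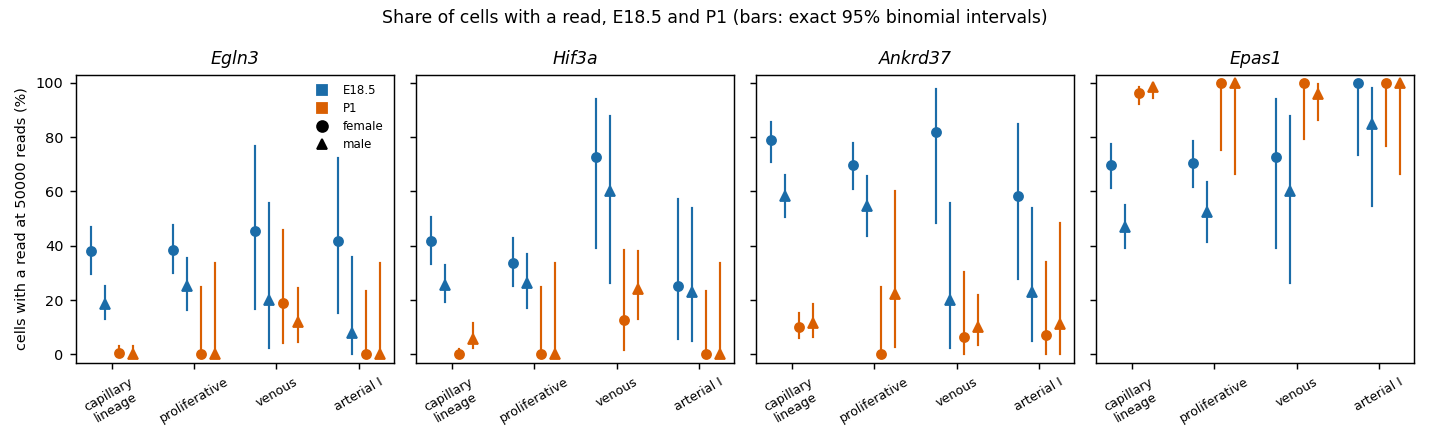
Share of cells with a read of Egln3, Hif3a, Ankrd37 and Epas1 at E18.5 (blue) and P1 (orange) in the capillary lineage and 3 other classes, in percent, each cell thinned to 50000 reads. Each point is 1 mouse (circle female, triangle male) and each bar its exact 95% interval (counting error only). Egln3 stands at 37.9% and 18.45% in embryonic cells and at 0.556% and 0% in P1 Car4- capillaries, and Epas1 stands at 96.1% and 98.4% at P1.

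The reads of Egln3, Hif3a and Ankrd37 were spread over many cells in the embryonic EC. The top embryonic cell held 13.5% and 17.8% of the Egln3 reads of its mouse, 8.09% and 9.99% of the Hif3a reads and 7.23% and 11.8% of the Ankrd37 reads. In small classes 1 cell often decided the sum: the E18.5 male's 16 Egln3 reads in Arterial EC I came from 1 cell (100%), and 1 cell gave 59.9% and 90.1% of the Egln3 reads in venous EC at E18.5. Some large sums leaned on 1 cell too. A single cell gave 34.0% of the Egln1 reads in the E18.5 female's embryonic EC. In cells labelled Early Car4- it was 58.8% of the P4ha1 reads of the P1 male and 64.6% of the Ndrg1 reads of the P7 female. Values of small classes, and of such genes in large ones, are to be read with that in mind.

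Egln3 and Hif3a were read together more often than the share of all cells with a Hif3a read. Of the 50 embryonic female cells with an Egln3 read, 33 also had a Hif3a read (66%), against 41.7% of all cells of that class and mouse. In the male it was 11 of 31 (35.5%), against 25.6%. Proliferative EC at E18.5 gave 23 of 47 (48.9%, against 33.6%) and 8 of 21 (38.1%, against 26.2%). The share was higher in all 4 sums. For Egln3 with Ankrd37 the embryonic shares were 39 of 50 (78%, against 78.8%) and 25 of 31 (80.6%, against 58.3%), and the proliferative ones 38 of 47 (80.9%, against 69.7%) and 15 of 21 (71.4%, against 54.8%). That share was higher in 3 of the 4 sums. Cells of a mouse share its library handling, so these shares carry no test.

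**Figure D3:**
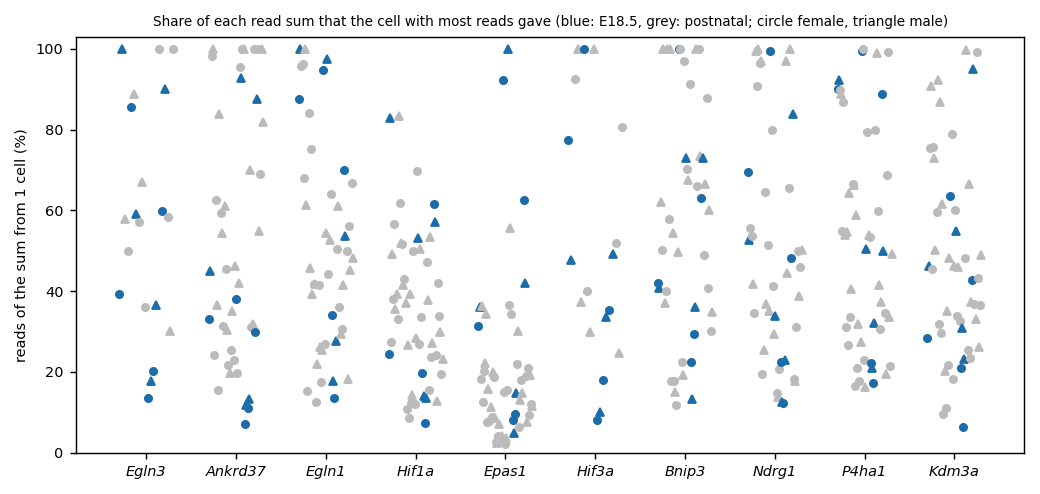
Share of a gene's reads that came from the single cell with most, in percent, for each gene and each sum of a mouse and label (blue E18.5, grey postnatal, circle female, triangle male). Egln3 in the embryonic EC lies low (13.5% and 17.8%), and small sums reach 100%, as Egln3 in the E18.5 male's Arterial EC I. Some large sums lie high, as Ndrg1 in the P7 female's Early Car4- cells (64.6%).

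Other classes of the same mice were tested for the same step, in cells that did not choose the members. In proliferative EC (122 and 84 cells at E18.5, 13 and 9 at P1) Egln3 stood at 97.8 and 37.4 CPM at E18.5 and at 0 reads in both P1 mice, at least 444-fold lower at a floor of 3 reads over the group. Hif3a stood at 52.1 and 45.1 CPM and then at 0.337 and 0 CPM, a ratio of 448 (95% counting interval 124 to 3704) on 2 P1 reads. Such ratios and bounds, here and further on, are of the reads pooled over both mice of a group per pooled total, so the mice weigh by their depth. Ankrd37 stood at 402 and 186 CPM and then at 0 and 8.39, a log2 difference of -5.84 (SE 1.83). Epas1 stood at 231 and 216 CPM and then at 1203 and 723, a log2 difference of +2.16 (SE 0.41). The 4 genes lay apart between the ages in the same directions as in the capillary lineage, and the mice are the same.

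None of them passed the threshold in proliferative EC. The adjusted p of edgeR's quasi-likelihood test (Benjamini-Hochberg over 13102 genes, 2 mice a group) was 0.375 for Egln3, 0.408 for Hif3a, 0.520 for Ankrd37 and 0.252 for Epas1. That test called 0 of the 10 members, as it called 0% of all genes. Of the members, 4 lay at an unadjusted p under 0.05, as did 972 of all 13102 genes. DESeq2 called 2 members, Hif3a and Epas1, among 510 genes in all, and limma on mean CPM called 0, as it called 0% of all genes. A fit without 1 of the P1 mice leaves 1 mouse at P1, so its calls are not read here. Of the members, 6 were lower in both P1 mice and 1 higher, against 27% and 9.72% of all genes, and 3 overlapped. Another scaling (RLE) moved the median of all genes in this class by 0.127 on the log2 scale and left the directions of Egln3, Hif3a, Ankrd37 and Epas1 as they were. Over the 15 alternatives the adjusted p of Epas1 ran from 4.56e-07 to 0.922 and that of Egln3 from 0.000719 to 1. Erythroid markers totalled 22.8 to 346 CPM in the E18.5 proliferative sums and 0 at P1, and the early response genes 3048 to 3395 and 1265 to 1606, and their part was not tested.

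In venous EC (11 and 11 cells at E18.5, 17 and 50 at P1) the embryonic pattern was in part still present at P1. Egln3 stood at 234 and 25.9 CPM at E18.5 and 17.5 and 17.5 at P1, a log2 difference of -3.10 (SE 1.54; edgeR adjusted p = 0.567). Hif3a stood at 141 and 198 CPM, the highest of any label, and then at 7.04 and 21.2 (-3.64, SE 1.79; edgeR adjusted p = 0.556). At the fixed depth, 3 of 16 and 6 of 50 venous cells at P1 had an Egln3 read, and 2 of 16 and 12 of 50 a Hif3a read. Among the blood vessel labels with at least 8 cells in a mouse, venous EC thus held the most Egln3 and Hif3a at P1.

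P4ha1 in venous EC stood at 97.2 and 56.9 CPM and then 9.78 and 18.7 (-2.56, SE 1.16; edgeR adjusted p = 0.555). Epas1 stood at 503 and 259 CPM and then at 791 and 731 (+0.83, SE 0.51; edgeR adjusted p = 0.604). In all, 6 members were lower in both P1 mice, against 9.83% of all genes, 1 was higher, against 27.4%, and 3 overlapped. edgeR called 0 of the 10, against 0.0162% of the 12326 genes tested. DESeq2 called 0, against 4.37% of all genes, and limma 0, against 0.0243%. At an unadjusted p under 0.05 in edgeR lay 1 member, as did 8.71% of all genes. These sums rest on 11 cells a mouse at E18.5.

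In Arterial EC I (12 and 14 cells at E18.5, 15 and 10 at P1) 3 members had no read in either P1 mouse. Egln3 went from 126 and 1.35 CPM to 0 and 0 (at least 203-fold lower), Hif3a from 129 and 7.74 (at least 225-fold lower) and Bnip3 from 27.2 and 59.4 (at least 195-fold lower). The 2 E18.5 mice differed widely from each other in Egln3 and Hif3a. Epas1 was already high before birth in this label, at 922 and 734 CPM, and stood at 1053 and 1155 at P1 (+0.36, SE 0.59; edgeR adjusted p = 1). Of the 10 members, 4 were lower in both P1 mice, against 13.9% of all genes, 1 was higher, against 16.7%, and 5 overlapped. edgeR called 0 of them, against 0.0293% of 10250 genes. At an unadjusted p under 0.05 lay 3, with 344 of all genes. The calls of DESeq2 were 2, Hif3a and Egln3, of 246 in all, and those of limma 0, of 4 in all. Between these sums the Car4+ capillary markers totalled 0 to 3.94 CPM at E18.5 and 349 to 1002 at P1, and the venous markers 175 to 345 and 647 to 2384, and their part was not tested.

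**Figure D4:**
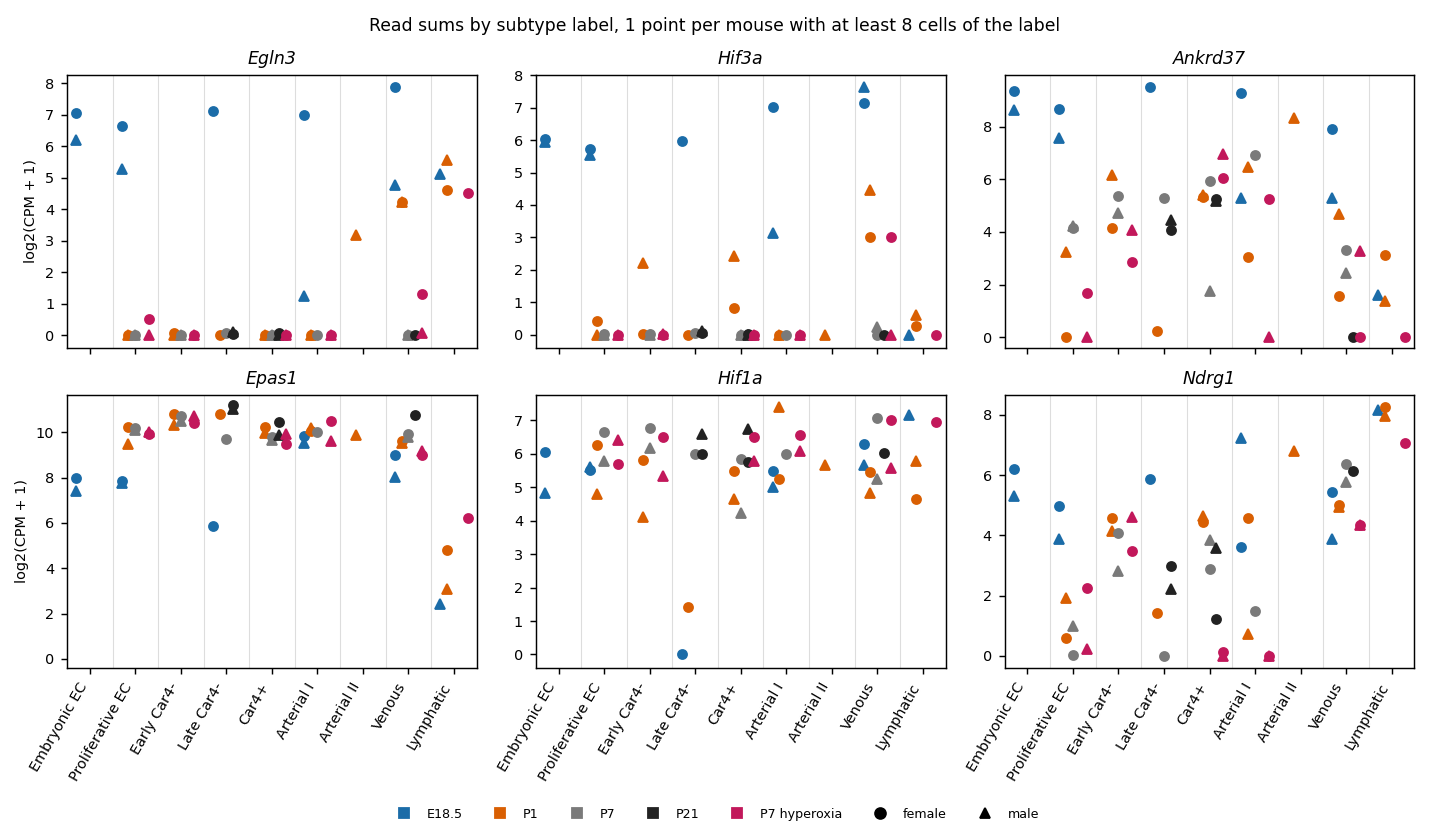
Level of 6 of the genes (Egln3, Hif3a, Ankrd37, Epas1, Hif1a, Ndrg1) by subtype label, as log2(CPM + 1). Each point is 1 mouse with at least 8 cells of the label (circle female, triangle male), coloured by group. Egln3 is read in all labels at E18.5 and, after birth, lies clearly above 0 in venous EC at P1 (17.5 and 17.5 CPM), in Arterial EC II and in lymphatic EC, where Ndrg1 is also highest and Epas1 lowest.

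Among the labels with both mice before birth, the mean Egln3 level was highest in venous EC (234 and 25.9 CPM), followed by the embryonic EC (132 and 72.5), proliferative EC (97.8 and 37.4) and Arterial EC I (126 and 1.35). The mice of neighbouring labels overlapped, so this order does not exceed their spread. The 12 E18.5 cells of the female labelled Late Car4-, a label otherwise of older mice, stood at 137 CPM of Egln3, 724 of Ankrd37 and 56.9 of Epas1. Their levels lay nearer the embryonic EC than the Late Car4- cells of P21, which held 0.0156 and 0.0741 CPM of Egln3 and 2387 and 2119 of Epas1. 1 cell gave 85.6% of their Egln3 reads.

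After birth the blood vessel labels held next to no Egln3. Of the 12 sums of a mouse and blood vessel label at P1, 8 had 0 Egln3 reads and the highest reached 17.5 CPM. At P7, 9 of 10 had 0, with a highest level of 0.0429, and at P21 the highest was 0.0741. At P7 in hyperoxia 7 of 10 had 0, with a highest level of 1.48. All 9 sums at E18.5 had reads, from 1.35 to 234 CPM with a median of 97.8.

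Lymphatic EC, which drain fluid and are not in contact with blood flow, kept a different set of levels. Egln3 stood at 33.5 CPM in the E18.5 male, 23.5 and 46.6 in the P1 mice and 21.8 in the hyperoxia female. Ndrg1 stood at 287 CPM at E18.5, 305 and 249 at P1 and 134 in hyperoxia, the highest of any label in each group. Epas1 stood at 4.33 CPM, 26.6 and 7.504, and 73.4, far below every blood vessel label of the same group, and Hif3a at 0, 0.195 and 0.516, and 0. Lymphatic EC thus combined Egln3 after birth with little Epas1 and next to no Hif3a. At the fixed depth 3 of 10, 3 of 26 and 6 of 13 lymphatic cells had an Egln3 read, and 8 of 10, 21 of 26 and 13 of 13 an Ndrg1 read. Only these 4 sums had enough cells.

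Arterial EC II, present in 1 mouse (P1 male, 9 cells), stood at 321 CPM of Ankrd37, with a read in 8 of 9 cells, 110 of Ndrg1 and 8.09 of Egln3. Its Ankrd37 level exceeded that of every other label after birth. Epas1 at P7 was ordered with no overlap between neighbouring classes among the 4 with 2 mice: Car4- capillaries (1569 and 1436 CPM), proliferative EC (1157 and 1086), venous EC (971 and 895) and Car4+ capillaries (883 and 815). This order does not hold by label. Early Car4- cells stood at 1441 to 1676 CPM, but the 44 Late Car4- cells of the P7 female stood at 832, within the Car4+ range. Car4+ capillaries are the large, thin capillary cells that face the air spaces. Hif1a ran from 17.7 to 133 CPM over the blood vessel sums of P7 and Kdm3a from 0.129 to 85.9, with wide gaps between the 2 mice of a label.

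From P1 to P7 no member passed the test in any class. edgeR called 0 of 8 members tested in Car4- capillaries, 0 of 9 in Car4+ capillaries, 0 of 10 in proliferative EC and 0 of 10 in venous EC, and it called 0% of all genes in each. Egln3 in proliferative EC had 0 reads at both ages and passed the filter through another group of the fit, so it could not be called. Hif3a there held 2 reads at P1 and 1 at P7. At an unadjusted p under 0.05 lay 1, 1, 0 and 2 members in these classes. Over all genes tested the shares were 11.3%, 6.28%, 9.82% and 3.21%. DESeq2 called 2 in venous EC, Hif3a and Egln3, of 76 genes in all. It called 0 in Car4- capillaries, Car4+ capillaries and proliferative EC, against 2.71%, 2.08% and 4.68% of all genes. limma called 0 members in all 4, as it called 0% of all genes. A fit without the E18.5 male, whose cells share the fit's spread, leaves 1 mouse in that group, so its calls are not read here. Run and age cannot be told apart in this step, since the CD31 cells of no P1 mouse share a run with those of a P7 mouse.

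The venous remainder of Egln3 and Hif3a was not seen at P7. Egln3 in venous EC stood at 17.5 and 17.5 CPM at P1 and at 0 reads in both P7 mice, at least 183-fold lower (edgeR adjusted p = 1). Hif3a stood at 7.04 and 21.2 CPM and then at 0 and 0.186, a ratio of pooled reads of 595 (counting interval 107 to 23503) on 1 read at P7, while the means of the mice were 14.1 and 0.0931 CPM. In Car4- capillaries Hif3a stood at 0.0122 and 3.66 CPM at P1 and 0.0108 and 0 at P7. Its pooled reads went from 364 to 2, a ratio of 214 (58.9 to 1776) that rests on the P1 male. The females of the 2 ages stood alike, and the gene was not tested in this step. In Car4+ capillaries Hif3a went from 0.770 and 4.40 CPM to 0 and 0, at least 29.2-fold lower. Hif1a in Car4- capillaries stood at 51.2 and 16.3 CPM at P1 and 102 and 74.3 at P7, a log2 difference of +1.36 (SE 0.55; edgeR adjusted p = 0.407). Epas1 there differed by -0.12 (SE 0.36; edgeR adjusted p = 0.928), and the mice overlapped.

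From P7 to P21 no member passed the test either. edgeR called 0 of 8 in Car4- capillaries, against 0.266% of all genes, and 0 of 9 in Car4+ capillaries, against 0.00814%. Hif3a in Car4+ capillaries held 1 read at P21 and 0 at P7, too few to be called. At an unadjusted p under 0.05 lay 0 members in each, against 10.5% and 5.24% of all genes. DESeq2 called 0 members in each, against 4.76% and 2.10% of all genes, and limma 0, against 0.0682% and 0.00814%. Epas1 in Car4- capillaries stood at 1569 and 1436 CPM at P7 and 2371 and 2134 at P21, a log2 difference of +0.70 (SE 0.36; edgeR adjusted p = 0.521), with no overlap of the mice. The label changed with age: 162 of 206 and 114 of 116 of these cells were Early at P7. At P21, 268 of 272 and 265 of 268 were Late. Age and label are thus hard to tell apart in this step. The 44 Late cells of the P7 female stood at 832 CPM of Epas1, against 2387 in the P21 female. The early response genes totalled 1401 to 2784 CPM at P7 and 5545 to 5625 at P21, and the epithelial markers 21.8 to 39.8 and 76.2 to 169, and their part was not tested. Ankrd37 stood at 40.4 and 54.2 CPM and then 15.7 and 20.3 (-1.26, SE 0.75; edgeR adjusted p = 0.575). In the male pair, whose CD31 cells share a run, Epas1 stood at 1488 and 2195 CPM and Ankrd37 at 20.6 and 25.9 CPM. The Ankrd37 difference of that pair was small and in the other direction. The pair leaves out 5 cells of other gates in the P7 male, and 1 of his 116 Car4- cells, labelled Late, held 861 Ankrd37 reads. His 114 cells labelled Early held 725, at 25.3 CPM.

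Hyperoxia at P7 is the study's injury model, in which newborn mice breathe oxygen-rich gas. Its comparisons share the P7 mice with the postnatal steps. edgeR called 0 members in Car4- capillaries (8 tested, against 0.0136% of all genes), Car4+ capillaries (9 tested, against 0%), proliferative EC (10 tested, against 0%) and venous EC (10 tested, against 0%). Hif3a in Car4+ capillaries had 0 reads in both groups and passed the filter through another group of the fit, so it could not be called. In proliferative EC Hif3a held 1 read in air and 0 in hyperoxia, and Egln3 0 and 11. In venous EC Egln3 held 0 and 24 reads and Hif3a 1 and 109. These members stand among those tested. At an unadjusted p under 0.05 lay 1, 1, 1 and 2 members. Over all genes tested in these classes the shares were 5.52%, 6.16%, 2.59% and 2.69%. DESeq2 called 1, Ndrg1 in Car4+ capillaries, where it called 265 genes in all. In Car4- capillaries, proliferative EC and venous EC it called 0, against 1.25%, 0.870% and 0.746% of all genes. limma called 0 members, against 0.0205% of all genes in Car4- capillaries and 0% in the other classes.

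Between air and hyperoxia the mice overlapped for 6 of 8, 7 of 9, 8 of 10 and 7 of 10 members tested in these classes. The share of all genes with no overlap was not counted for hyperoxia or the postnatal steps. A lack of overlap between 2 and 2 mice therefore does not set a gene apart there. Ankrd37 lay apart between air and hyperoxia with no overlap in 3 classes, not all in the same direction. In Car4- capillaries it stood at 40.4 and 54.2 CPM in air and 6.28 and 15.2 in hyperoxia, a log2 difference of -2.15 (SE 0.77; edgeR adjusted p = 0.887, and 0.132 to 1 over the alternatives). In proliferative EC it stood at 16.7 and 17.9 CPM and then 2.21 and 0 (-3.97, SE 1.70; edgeR adjusted p = 1). Both hyperoxia mice lay below both mice in air in these classes. The male's 54.2 CPM rests in part on the 1 Late cell with 861 reads, and his cells labelled Early stood at 25.3. In Car4+ capillaries it stood at 60.2 and 2.33 CPM in air and 64.5 and 125 in hyperoxia (+1.51, SE 1.16; edgeR adjusted p = 0.861). There both hyperoxia mice lay above both mice in air, which differed widely from each other.

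The male pair, whose CD31 cells share a run, gave a smaller gap in Car4- capillaries, at 20.6 CPM in air and 15.2 in hyperoxia, a log2 difference of -0.44. In the same pair proliferative EC stood at 20.2 and 0 CPM and Car4+ capillaries at 6.05 and 125. The male Car4+ sum in hyperoxia also held 379 CPM of erythroid markers, against 0.259 in the male and 8.84 in the female in air and 0.418 in the female in hyperoxia, and their part was not tested. The difference of the hyperoxia effects between Car4+ and Car4- capillaries, with the mouse as a term, was +4.92 on the log2 scale for Ankrd37 (SE 1.75; edgeR adjusted p = 1). DESeq2 gave 0.0340 for it. edgeR called 0 members in this interaction, as it called 0% of all 13240 genes, and 2 lay at an unadjusted p under 0.05, as did 438 of all genes.

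Ndrg1 in Car4+ capillaries stood at 6.41 and 13.4 CPM in air and 0.0836 and 0 in hyperoxia, a ratio of 314 (counting interval 56.0 to 12427; edgeR adjusted p = 0.731) on 1 read in hyperoxia. In air, 1 cell gave 96.6% of the female's reads and 1 cell gave 97.1% of the male's. In venous EC Ndrg1 stood at 82.4 and 53.8 CPM and then 19.5 and 19.2 (-1.82, SE 1.10; edgeR adjusted p = 1). Epas1 in venous EC stood at 971 and 895 CPM and then 508 and 571 (-0.78, SE 0.51; edgeR adjusted p = 1), and at 895 and 571 in the male pair of a shared run. In Car4- capillaries Epas1 stood at 1569 and 1436 CPM and then 1353 and 1696, so that the mice overlapped (0.00, SE 0.36). The early response genes totalled 5096 to 10039 CPM in the venous sums in air and 2828 to 3304 in hyperoxia, and their part was not tested. For Epas1 the difference of these effects, venous minus Car4-, was -0.77 (SE 0.26; edgeR adjusted p = 1).

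The interactions of venous and of proliferative EC with Car4- capillaries called 0 members as well, as they called 0% of 13379 and 0% of 13781 genes. Members at an unadjusted p under 0.05 numbered 2 and 0, against 3.61% and 3.37% of all genes. DESeq2 called 2 members in the Car4+ interaction, Ankrd37 and Ndrg1, of 216 genes in all. In the venous and proliferative interactions it called 0, against 1.22% and 0.726% of all genes. limma called 0 members in all 3, against 0.00747% of all genes in the venous one and 0% in the others. P4ha1 in Car4- capillaries stood at 34.9 and 22.4 CPM in air and 16.2 and 8.90 in hyperoxia (-1.23, SE 0.63; edgeR adjusted p = 0.887). Both hyperoxia mice were below both mice in air, and the male pair of 1 run stood at 20.1 and 8.90. Egln3 stayed at or near 0 reads in these 4 classes in air and hyperoxia. Hif3a in venous EC went from 1 read to 109, of which 80.7% came from 1 cell.

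**Figure D5:**
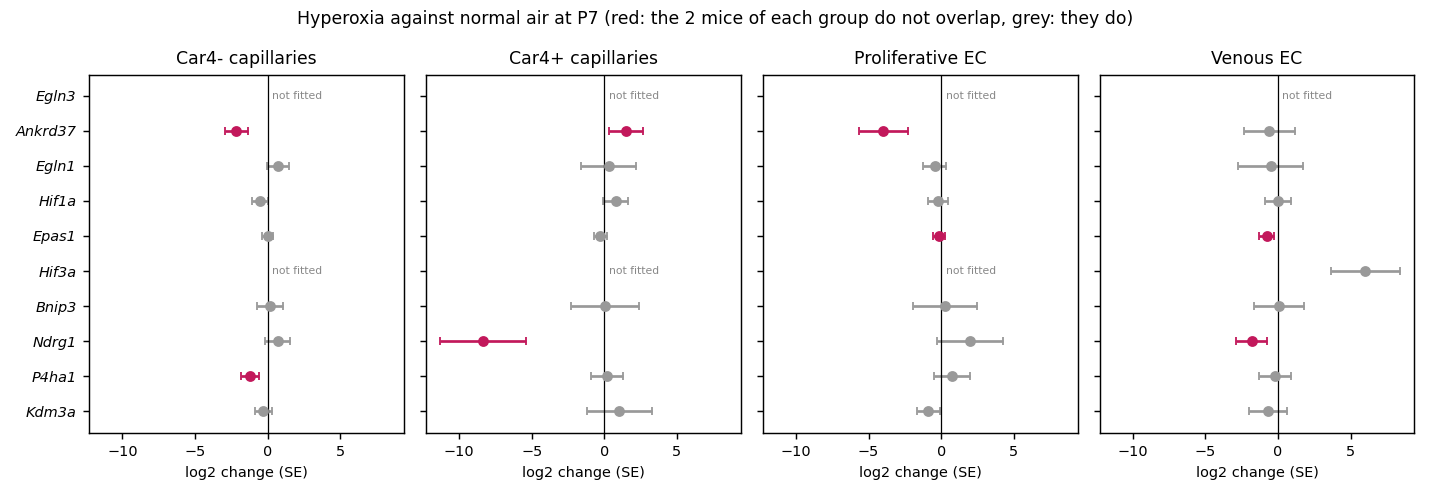
Log2 difference, hyperoxia minus air at P7, for each gene in 4 classes, with its standard error as a bar, in red where the 2 mice of each group do not overlap and in grey where they do. A gene is marked as not fitted where a group had 0 reads or it was not tested. Ankrd37 lies at -2.15 in Car4- capillaries, -3.97 in proliferative EC and +1.51 in Car4+ capillaries, and the far points of Ndrg1 in Car4+ capillaries and Hif3a in venous EC rest on a group with 1 read.

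Other genes of the pathway were taken from 2 lists, 9 regulators of HIF and 30 further targets. At birth in the capillary lineage edgeR called 0 of the 8 regulators tested and 0 of the 30 targets, against 0.494% of all genes. Those at an unadjusted p under 0.05 numbered 0 and 8, against 1410 of all 14967 genes (9.42%). DESeq2 called 3 targets, Angptl4, Pdk1 and Stc2, and no regulator, against 3.82% of all genes. limma called 0 of both, against 0.381%. Of the targets, 13 were lower in both P1 mice, 4 higher and 13 overlapped, with a median log2 difference of -0.54, and of the regulators 3 were lower, 1 was higher and 4 overlapped (median -0.41). Over all genes 18.6% were lower and 16% higher in the same way, with a median of 0.02. Over all 14 comparisons edgeR called 0 of either list, with 4 and 40 in sum at an unadjusted p under 0.05. Each comparison tested 8 regulators and 22 to 30 targets. The share of all genes at that p ran from 2.59% to 11.3% by comparison, so nothing is read from these sums.

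Among the targets of at least 10 CPM, the largest negative log2 differences were those of Pdk1, which holds pyruvate back from the mitochondria, the glucose transporter Slc2a1 and Ero1l, an oxidase of protein folding. Pdk1 stood at 45.9 and 22.7 CPM at E18.5 and 5.74 and 2.19 at P1 (log2 difference -3.08, SE 1.02). Slc2a1 differed by -1.88 (SE 0.86) and Ero1l by -1.46 (SE 0.80), each with no overlap of the mice. Vegfa, the endothelial growth factor, had the largest positive log2 difference of these, at 8.22 and 2.07 CPM and then 23.9 and 15.3 (+2.01, SE 0.75). Hilpda, a lipid droplet protein, stood at 355 and 198 CPM and then 405 and 750 (+1.21, SE 0.45), and Gbe1, the glycogen branching enzyme, at 10.6 and 2.88 and then 15.2 and 12.6 (+1.15, SE 1.00). Known HIF targets of this list thus lay on both sides of 0 at birth.

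Over 48 sums of a mouse and class and 9144 genes, the genes whose level of log2(CPM + 1) was most like that of Egln3 were Hif3a (Pearson r 0.80), Gas5 (0.76), Hsp90ab1 (0.73), Npm1 (0.72) and Ndufc2 (0.71). Epas1 stood at -0.67 with Egln3. Those most like Ankrd37 were Snrk (0.64), Arpc3 (0.62), Rtf1 (0.62), Lrrc8c (0.61) and Depp1 (0.61). The sums share mice, runs and depth, so these values describe likeness and carry no p.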

How the data were processed

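The authors deposited 1 table of read counts per gene and cell, raw counts with no normalization, from full-length plate libraries (per the labels' protocols; no molecular identifiers, so reads are not molecules). STAR 2.5.2b, HTSeq 0.10 and the build GRCh38 are named in the submitters' processing notes. GRCh38 is a human build and these are mouse cells, so the build behind the counts is not settled, and coordinates printed here come from RefSeq on GRCm38.p6, not from the table. The members and gene lists were chosen with earlier results of these data known.

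Counts of 2931 cells were summed per mouse name and class, where both mice of a group had at least 8 cells, and all usable groups of a class shared 1 estimate of the spread. Each comparison had 2 mice a group, and since the labels do not say that a name is 1 animal, p-values measure the spread between these names. Sums were tested with edgeR 4.0.16 (quasi-likelihood F test, TMM, filterByExpr) in R 4.3.3, adjusted by Benjamini-Hochberg over all genes tested, at a threshold of 0.05. A CPM is a count per 1000000 reads of the sum. Alternatives were RLE size factors, no filter beyond 1 read, DESeq2 1.42.0, limma 3.58.1 on log2(mean CPM + 1), CD31 cells alone, cells thinned to 50000 reads, sex as a block, and each mouse left out. Fits were tested on simulated data first. All 10 members were named, pathway genes only if called or among the 3 highest and 3 lowest at birth with a mean of 10 CPM, and the 5 genes most like Egln3 and Ankrd37. Pathway genes that DESeq2 alone called were named after their values were seen.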

Additional observations from a re-analysis of the deposited data

Results flagged for a closer look

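Ndrg1 lay opposite ways between P1 and P7 in different classes of the same mice, though edgeR called it in none. On the log2 ratio of reads pooled over both mice of a group, per pooled total, it lay 0.53 lower (-0.53) at P7 in Car4- capillaries and 1.53 lower (-1.53) in Car4+ capillaries, and 1.37 higher (1.37) in venous EC, with no overlap between the ages in any of the 3. Epas1 lay at -0.40 in Car4+ capillaries and at 0.37 in venous EC in the same step, also with no overlap. Ankrd37 in hyperoxia lay at 1.07 in Car4+ capillaries and at -3.82 in proliferative EC. Each was listed because every mouse of one class lay one way and every mouse of the other the opposite way, and these differences themselves were not tested. In Car4+ capillaries at P7 a single cell gave 96.6% of the female's and 97.1% of the male's Ndrg1 reads.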

How the results depend on the processing

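Of the counts of members called, 212 alternatives gave a count within 1.5 times the reported one and 11 did not. With no filter beyond 1 read edgeR called 3 members at birth in proliferative EC, 2 from P1 to P7 in venous EC and 1 in hyperoxia in proliferative EC. The number of all genes called with that filter is not given here, so nothing is read from these counts. DESeq2 called 2 at birth in proliferative EC, 2 at birth in Arterial EC I, 2 from P1 to P7 in venous EC, 1 in hyperoxia in Car4+ capillaries and 2 in the Car4+ interaction. Leaving out 1 mouse at a time gave 0 to 4 at birth in proliferative EC and 0 to 1 from P1 to P7 in venous EC, and 5 to 9 members lower in both P1 mice of the capillary lineage, which was 8 in the female pair of 1 run. The cause was not tested. In the female pair of 1 run Bnip3 lay at 0.50 on the log2 scale, against -1.20 over both pairs.

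The labels pair the mice only by sex. With sex as a replicate block the count of members called stayed at 0 in all 13 comparisons where it was fitted, and Hif3a at birth in the capillary lineage lay at -6.23. The interaction fits already hold the mouse as a term. In that lineage 167 alternatives moved a log2 difference by less than 1 SD and 13 by more, among them Egln3, from -16.50 to -11.04 with a mouse left out and -10.19 with cells thinned. With all reads of a cell in place of 50000, the share of embryonic female cells with a Hif3a read was 50.7%. Most P1 sums outside the capillaries held 9 to 17 cells a mouse, and whether that limited the calls was not tested. Car4- capillaries from P1 to P7, with 116 to 206 cells a mouse, had 0 of 14660 genes called by edgeR. From P7 to P21 they had 39 called. The capillary lineage at birth, with 122 to 181 cells a mouse, had 74 of 14967 called.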
